A study of Mus musculus with 16 samples.

Results

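The rows described here are the mouse miRNA entries that carry a miRBase number of 5000 or higher. They were taken by name from the table of small non-coding RNAs of the brain, mature and precursor entries alike, and they number 650 of 18488 rows. They make up 33.0% of the 1969 miRNA rows of the table. Mature rows numbered 435 and precursor rows 215, covering 324 distinct numbers from 5099 to 9769. The edges of the rule were miR-5099, the lowest number in, and miR-3971, the highest number out, whose mature row had a mean of 3.07 normalised counts. Names are written without the species prefix, with miR for a mature row and mir for the precursor row of the hairpin.

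Small RNA was sequenced from 10 mg of prefrontal cortex of 8 PS19 and 8 wild-type (WT) mice aged about 9.6 months. PS19 mice were heterozygous for a transgene of human P301S mutant tau driven by the murine prion promoter, and WT mice were their littermates on the same C57BL/6 and C3H background. Both groups held males and females in equal number, though the labels do not tell the sex of a library, and all mice were perfused before dissection. Values are read counts that the authors divided by DESeq2 size factors, and recovered reads ranged from 13187096 to 23058568 per library.

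A miRNA is cut from a hairpin transcript by Drosha and Dicer, which leaves a 5p and a 3p strand, and the strand that is loaded into Argonaute pairs with target mRNAs through its seed, bases 2 to 8. A mirtron skips the Drosha step: a short intron is spliced out, debranched and folded into the hairpin, so that the splice sites set its ends. High-numbered entries came late to miRBase, mostly from deep sequencing, and many are rare mirtron-like species or lie within another non-coding RNA.

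Neuronal miRNAs identified the tissue. The 5 neuronal markers, among them miR-124-3p and miR-128-3p, summed to 294699 to 1026140 normalised counts per PS19 library and 341530 to 953149 per WT library, and none of them had an unadjusted p under 0.05. The 5 microglial and immune markers summed to 571 to 3013 in PS19 and 433 to 1539 in WT, and 1 of them, miR-155-5p, had an unadjusted p under 0.05 (limma log2 difference 0.78 ± 0.30 SE, adjusted p = 0.9998). The 4 liver and muscle markers, among them miR-122-5p and miR-1a-3p, were not near 0, at sums of 2683 to 14916 in PS19 and 2999 to 10900 in WT. The part of these markers in the results below was not tested. In bulk tissue a change in the number of cells of a type cannot be told apart from a change in RNA per cell. The library codes of the 8 PS19 mice all begin with G, those of the WT mice with G in 2 cases (replicates 2 and 4), with F in 4 and with A in 2 cases. What the letter stands for is not given in the sources used here, and only 2 WT libraries share the letter of PS19.

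Most hairpins of these entries abutted the end of an intron. RefSeq (GRCm38.p6) gave a mature sequence for 386 of the 435 mature rows and a hairpin for 188 of the 215 precursor rows. Among the 188 hairpins, 108 (57.4%) had an end within 5 bases of an annotated splice site on the same strand, and 105 of those lay at the acceptor, the downstream end of an intron. Among the 371 hairpins of lower-numbered miRNAs and let-7, 15 (4.04%) did so. Only 6 of the 188 were mirtrons in the strict sense, with both ends at the ends of 1 intron, and 102 touched 1 end. The introns behind the 105 acceptor hairpins had a median length of 610 bases and ran from 67 to 36269 bases, and 21 of them were at most 200 bases long. Of the remaining hairpins, 36 overlapped an exon, 21 lay deeper within an intron and 23 in no annotated gene.

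The match at the acceptor was exact to the base for most 3p strands. Of 177 3p rows with a sequence, 113 (63.8%) ended at the last base of an annotated intron, against 13 of 325 (4.0%) among lower-numbered miRNAs. All 113 ended in AG, the dinucleotide that closes nearly every intron, which follows from their position. Of the other 64 3p rows 5 did (7.81%), against 9.23% of the 3p rows of lower-numbered miRNAs. Over all 3p rows here it was 66.7%. The 3p sequences were also rich in C and U, with a median of 71.4% for those ending with an intron, 64.3% for the 64 others and 54.5% in lower-numbered 3p rows. Only 10 of 162 5p rows (6.17%) began at the first base of an intron, against 7 of 310 (2.26%). The following 5 rows are shown because they are abundant or have the smallest p among such rows, with the final AG in capitals.
miR-6988-3p: ugaccucuguaucuccugccAG
miR-6906-3p: gaauuccggucuccucuccAG
miR-6944-3p: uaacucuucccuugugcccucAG
miR-6989-3p: uguccacugucucuggucccAG
miR-6958-3p: ucagcugccucuugccaucacAG
They lie at chr19:6051371-6051392 (+) in Syvn1, a ubiquitin ligase of the endoplasmic reticulum, at chr10:60126813-60126833 (+) in Spock2, a brain proteoglycan, at chr13:55477681-55477703 (-) in Dbn1, the actin-binding drebrin of dendritic spines, at chr19:6346523-6346544 (+) in Map4k2, a kinase, and at chr15:89185465-89185487 (-) in Dennd6b. The introns of Dbn1 and Dennd6b, of 96 and 73 bases, are each covered by the hairpin to within 5 bases of both ends, and that of Spock2 is 563 bases long.

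**Figure D1:**
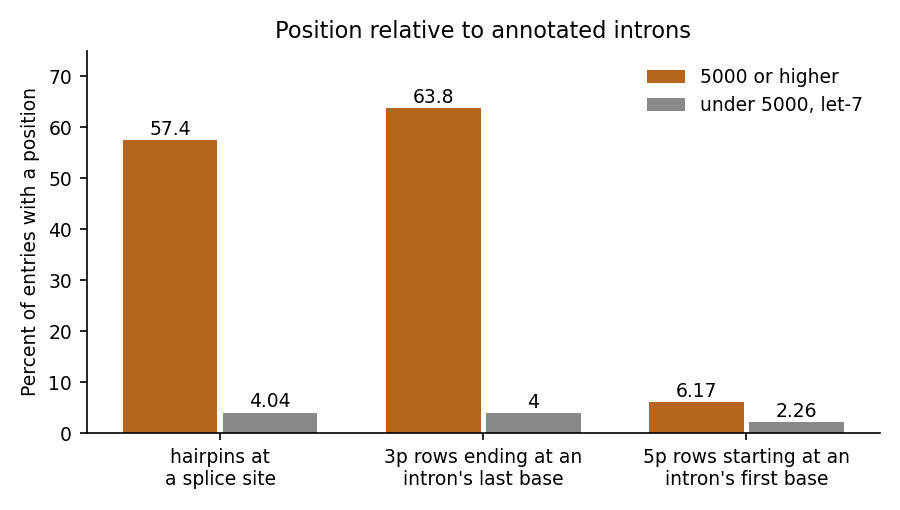
Percent of hairpins with an end within 5 bases of a splice site, of 3p rows ending at an intron's last base and of 5p rows starting at an intron's first base, for miRNA entries numbered 5000 or higher and for lower-numbered entries. The first and second pairs of bars stand at 57.4 against 4.04 and 63.8 against 4.0, and the third at 6.17 against 2.26.

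Only a few entries were found whole inside a small RNA of the other classes searched. The mature sequences were searched without mismatch in annotated transcripts of GENCODE M21, including 354 rRNA, 1507 snoRNA, 51 scaRNA, 1383 snRNA and 22 mitochondrial tRNA transcripts. A snoRNA, scaRNA or mitochondrial tRNA held 4 of the 386 sequences, no rRNA transcript held any, and protein-coding transcripts held 40. Cytosolic tRNAs and the full ribosomal precursor were not analysed here, so these counts cannot show whether entries come from those RNAs. The 4 rows shown next are examples of each kind of host RNA, with the seed in capitals.
miR-5121: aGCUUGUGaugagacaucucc
miR-6516-5p: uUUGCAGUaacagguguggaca
miR-6481: cACUGAAAaugcuuagaug
miR-5114: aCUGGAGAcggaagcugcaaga
The first, at chr7:45126925-45126945 (-), is a stretch of Snord33, a box C/D snoRNA that guides ribose methylation and sits in an intron of the ribosomal protein gene Rpl13a. The second, at chr11:117077370-117077391 (+), lies in the scaRNA Gm26083 within Snhg20. The third is mapped by RefSeq to chr3:99199367-99199385 (-) and is also found in mt-Tf, the mitochondrial tRNA for phenylalanine. The fourth, at chr19:44303171-44303192 (+), is part of an exon of Scd2, a stearoyl-CoA desaturase that makes monounsaturated fatty acids.

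GC content was higher than in other miRNAs. The mature sequences had a median of 56.5% G and C, against 50.0% in lower-numbered miRNAs, and both sets had a median length of 22 bases. The 3 rows with an unadjusted p under 0.05 for genotype are represented below by the mature sequences of their entries, with the seed in capitals.
miR-6236: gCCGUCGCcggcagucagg
miR-5126: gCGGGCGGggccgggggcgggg
miR-7240-5p: uUGGAGAGgaccgccgucgga
They hold 78.9%, 100% and 66.7% G and C, and miR-5126, at chr1:84695890-84695911 (+) outside annotated genes, was the only one of the 386 with no A or U. At a split chosen after the values were seen, 3 of the 6 tested mature rows with at least 65% G and C were higher in PS19, with log2 differences from -0.36 to 1.94, as were 28 of the 48 others with a sequence. RefSeq places miR-6236 at chr9:110281353-110281371 (+) and miR-7240-5p at chr8:70798135-70798155 (+).

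Seeds were rarely shared with better-known miRNAs. The seed AUGUGCC was common to miR-5129-3p, from the acceptor end of an intron of the transcription factor gene Zeb2, and to miR-455-5p, and their means were 45.4 and 113 normalised counts. Within the high-numbered rows, GGUCUGU was the shared seed of the most abundant pair, shown here with the seed in capitals.
miR-5106: aGGUCUGUagcucaguuggcaga
miR-6897-3p: cGGUCUGUguucuucccccag
The pair had means of 69.9 and 2.79 normalised counts. Of the pair, miR-6897-3p ends at an acceptor with AG, and miR-5106 does not end at the last base of an annotated intron.

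Levels were low for nearly all of these rows. Mature rows had a median mean of 0.560 normalised counts over the 16 libraries and precursor rows 0.272, against 10.4 and 2.30 in the 806 mature and 513 precursor rows of other miRNAs. Of the 650 rows, 234 had at most 3 reads in all 16 libraries together and 218 had values identical to those of another row of the table. A read was present in every library for 85 rows. A mean of at least 5, the filter for testing, was reached by 76 rows, 62 mature (14.3%) and 14 precursor (6.51%), against 56.9% and 41.5% of other mature and precursor miRNA rows. By number, 13 of 78 rows in the 5000s passed, 29 of 237 in the 6000s, 27 of 292 in the 7000s, 7 of 39 in the 8000s and none of 4 in the 9000s.

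**Figure D2:**
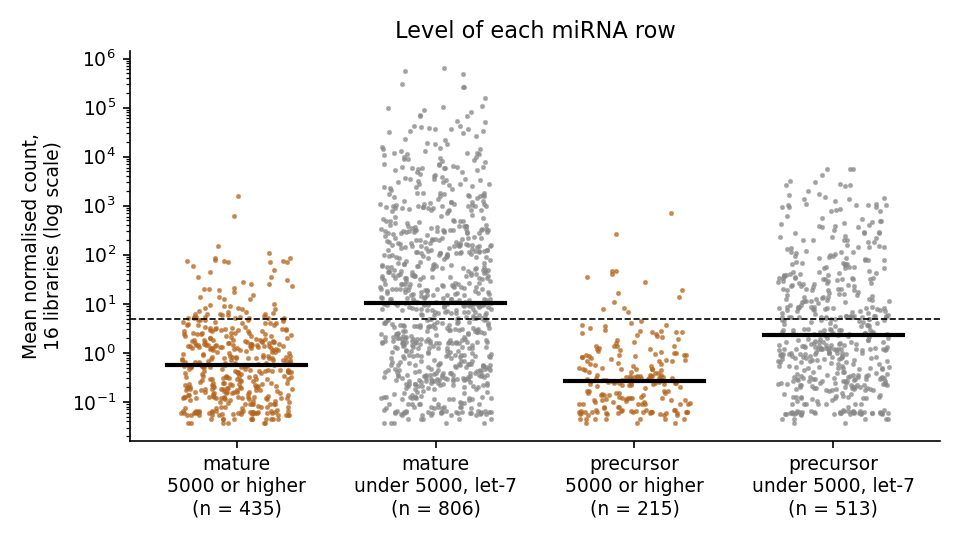
Mean normalised count over 16 libraries on a log scale for each miRNA row, split into mature and precursor rows and into entries numbered 5000 or higher and lower-numbered entries. Bars mark the medians, 0.560 and 10.4 for mature and 0.272 and 2.30 for precursor rows, and the dashed line marks the filter at 5.

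All 650 rows together took 0.136% ± 0.0278 of the miRNA value in PS19 libraries, against 0.124% ± 0.0246 in WT libraries (SD, n = 8 each). Their ranges, 0.109% to 0.180% and 0.100% to 0.164%, overlapped almost fully. The sum came from 4613 to 6776 reads per PS19 library and 4297 to 8242 per WT library. Precursor rows were more prominent in their own class, with 1.99% of the precursor value in PS19 and 1.79% in WT. The 76 tested rows held 92.2% of the summed value and the 3 most abundant 52.7%.

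The most abundant of these rows were miR-5099 and its precursor row. Mature miR-5099 ranked 115 among all miRNA rows by mean, and took 28.8% of the summed value of the high-numbered rows. Per library the share was 31.4% ± 2.97 in PS19 and 26.3% ± 2.70 in WT (SD, n = 8 each). The lowest PS19 library, at 25.4%, lay within the WT range of 21.2% to 28.7% and the other 7 above it, a difference that was seen after the values were known and was not tested. It lay between 1252 and 2231 normalised counts in PS19 libraries, with a median of 1824, and between 1060 and 2065 in WT libraries, with a median of 1263. In normalised counts the groups overlapped, although 7 of 8 PS19 libraries lay above the WT median. The log2 difference was 0.34 ± 0.20 (SE, limma, unadjusted p = 0.112, adjusted p = 0.9998). The precursor row, at chr12:36816205-36816278 (+) outside annotated genes, lay between 374 and 1208 in PS19 libraries and between 336 and 875 in WT libraries, at a log2 difference of 0.33 ± 0.27 (SE).

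The next rows by level came from introns of Gap43 and Cdk12. miR-6540-5p, from an intron of Gap43, the growth cone protein, lay between 266 and 1471 normalised counts in PS19 libraries (median 381) and between 310 and 1249 in WT libraries (median 510). Its other strand miR-6540-3p had a mean of only 1.503, so nearly all reads of this hairpin were 5p. The log2 difference of miR-6540-5p was -0.33 ± 0.37 (SE), with full overlap. miR-5119, within an intron of the transcription kinase gene Cdk12 at chr11:98262638-98262656 (+), lay between 84.5 and 225 in PS19 libraries and between 93.2 and 261 in WT libraries. Its log2 difference was -0.24 ± 0.25 (SE).

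Rows with a known host RNA followed. miR-5121 lay between 61.7 and 172 normalised counts in PS19 libraries and between 88.5 and 159 in WT libraries, with medians of 108 and 110 and a log2 difference of -0.08 ± 0.23 (SE). Snord33, which contains its sequence, was itself listed at 676 to 1370 in PS19 and 688 to 1186 in WT, at a log2 difference of 0.02 ± 0.19 (SE). The miRNA row amounted to 7.78% to 16.4% of the snoRNA row across the 16 libraries. How reads were shared between such nested entries is not given in the sources used here. miR-6516-5p lay between 36.4 and 105 in PS19 libraries and between 33.2 and 108 in WT libraries, while its 3p strand had a mean of 0.549. miR-6481 was close to the detection limit, at 0.810 ± 0.730 in PS19 and 0.745 ± 1.39 in WT (SD, n = 8), from 12 reads in all.

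Rows from splice acceptors had moderate to low levels. miR-6988-3p had medians of 68.6 normalised counts in PS19 and 67.8 in WT, and miR-6906-3p of 66.1 and 68.7. Their log2 differences were -0.13 ± 0.30 and 0.02 ± 0.27 (SE). The strict mirtron miR-6944-3p of Dbn1 had medians of 42.4 and 57.1, ranges of 28.6 to 90.4 and 29.7 to 118, and a log2 difference of -0.31 ± 0.31 (SE). Over the 23 tested rows that ended with an intron, means ran from 5.15 to 78.6, 11 were higher in PS19, and the median log2 difference was -0.0046. All but miR-6958-3p (-0.91) lay between -0.47 and 0.42, and the 23 rows held 8.76% of the summed value. Of 24 acceptor hairpins with both strands listed and 1 at a mean of 5 or more, 18 had more 3p than 5p, against 109 of 222 for the hairpins of lower-numbered miRNAs. Without that minimum it was 56.8% of 88 hairpins against 49.8% of 285. Among high-numbered hairpins away from splice sites it was 1 of 4 with the minimum and 53.8% of 26 without it.

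None of the other abundant rows had an unadjusted p under 0.05. miR-7224-3p had medians of 78.1 normalised counts in PS19 and 78.9 in WT, and miR-6979-3p of 63.2 in both. miR-8103, in an intron of Osbpl7, lay between 25.6 and 161 in PS19 libraries and between 24.1 and 137.1 in WT libraries, at a log2 difference of 0.36 ± 0.35 (SE). Its precursor row had means of 8.88 ± 3.90 and 7.07 ± 3.49 (SD, n = 8). miR-7688-5p was the least even of the 12 most abundant rows: it was 4.37 in PS19 replicate 1 and 2.01 in WT replicate 4, and between 29.99 and 202 in the other 14 libraries. Its precursor row had a mean of 0.999.

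**Figure D3:**
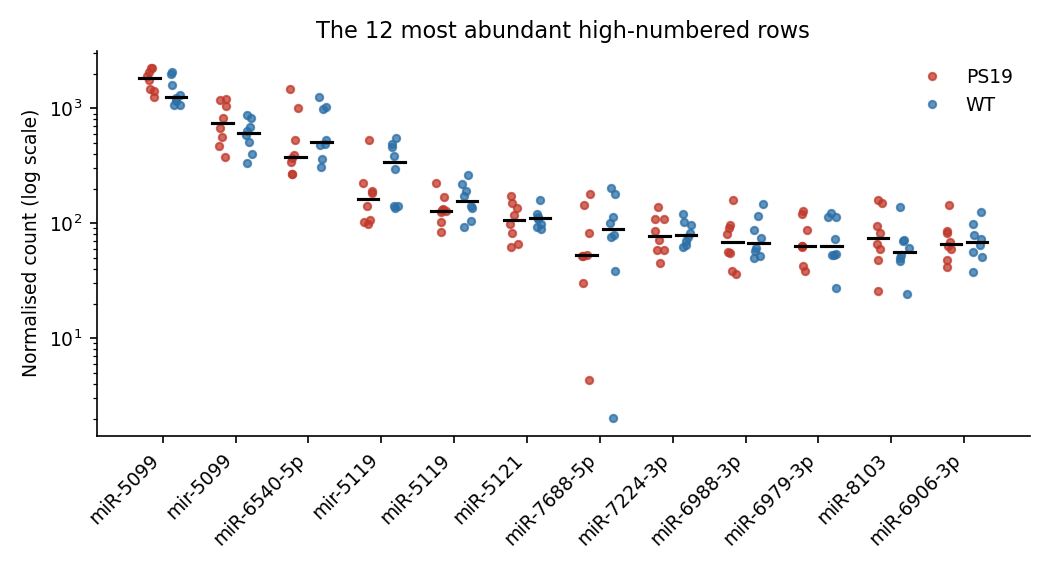
Normalised count on a log scale in each of 8 PS19 and 8 WT libraries for the 12 most abundant high-numbered miRNA rows, with bars at the medians. The groups overlap in all 12, and miR-7688-5p has 1 library of each group under 5.

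A few precursor rows exceeded the mature rows of the same entry. This held for 9 of 59 entries with a mean of at least 5 on either side (15.3%), against 40 of 312 (12.8%) in lower-numbered miRNAs. The difference was extreme for mir-6240, at 40.9 normalised counts against 0.396 for its mature row, and for mir-5108, at 34.6 against 1.76. The precursor rows of mir-5126 (19.2 against 1.425), mir-6236 (47.1 against 7.66) and mir-7073 (47.7 against 9.12) were above the mature rows in 16 of 16 libraries. For mir-5119 the precursor row had a mean of 261 against 151, and it was above in 12 of 16 libraries. How reads were divided between a hairpin and its strands is not given in the sources used here.

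The comparison of PS19 with WT asks whether tau pathology in the cortex goes with a change in small RNAs. No row of the table had an adjusted p under 0.05 with limma (0 of 6024 tested, 0%), against 241 with an unadjusted p under 0.05 (4%). With DESeq2 on recovered reads 15 rows had an adjusted p under 0.05, and with edgeR 0, against 283 and 265 at an unadjusted p under 0.05. None of the 15 was a high-numbered miRNA. Among the 76 high-numbered rows tested, 3 had an unadjusted p under 0.05 (3.95%), all higher in PS19, where the rate over all features was 1.86% for higher and 2.14% for lower. The share of 3.95% is close to the 4% of all features. Among the rows named here, miR-6236 and miR-5114 reached the filter only through PS19 libraries, and miR-6958-3p only through WT libraries. For these rows the filter itself favours the direction in which they differ. The median log2 difference over the 76 was 0.03, with 42 higher in PS19, against -0.02 over all features and -0.13 over the 672 tested rows of other miRNAs, of which 30.7% were higher in PS19. No high-numbered row separated the 8 PS19 from the 8 WT libraries, as 6 of the 6024 features did with PS19 above (0.0996%) and none with PS19 below. Without the filter on low values, 500 of the 650 rows could be fitted, of which 10 had an unadjusted p under 0.05 and a higher value in PS19 (1.9% over all 17088 features) and 13 a lower one (2.08%). Within 0.5 of 0 on the log2 scale lay 68 of the 76 rows, and 37 of the 38 at a splice site. So did 5306 of the 6024 features and 577 of the 672 rows of other miRNAs, so closeness to 0 was not particular to the high-numbered rows. In simulated data with the spread of these 6024 features, 85.7% of log2 changes of 2 reached an adjusted p under 0.05, and 17.6% of log2 changes of 1.

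**Figure D4:**
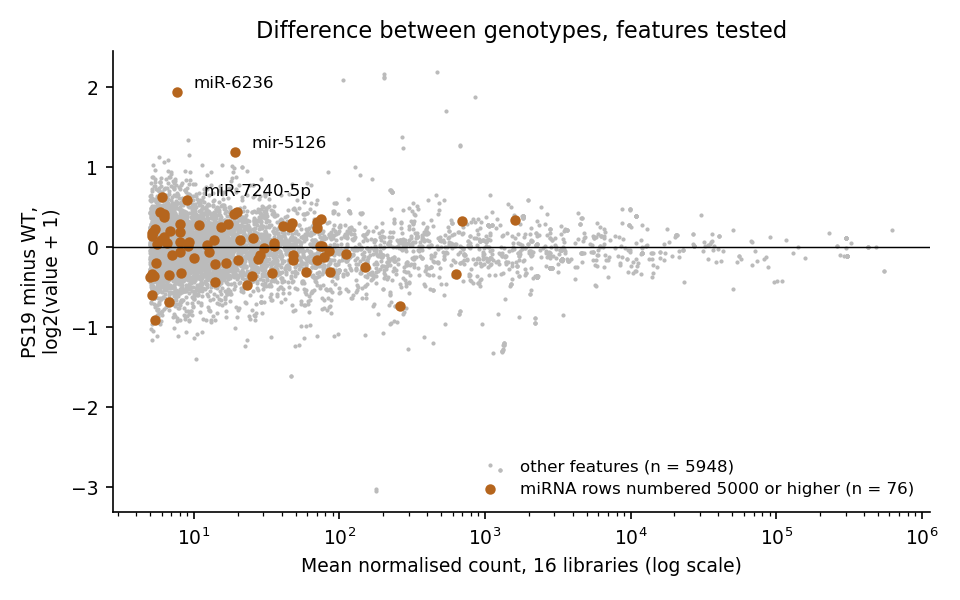
Difference in log2(value + 1) between PS19 and WT against the mean normalised count on a log scale, for the 76 tested miRNA rows numbered 5000 or higher and the 5948 other tested features. The high-numbered rows lie mostly within 0.5 of 0, as do 5306 of all 6024 tested features. Among the high-numbered rows, miR-6236 at 1.94 and mir-5126 at 1.19 lie above the others.

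miR-6236 had the largest difference of the 76, but it reached the filter at a mean of 5 only through its PS19 libraries. In PS19 it ran from 4.39 to 24.6 normalised counts (median 11.2), and in WT from 0 to 6.66 (median 2.34). All 8 PS19 libraries lay above the WT median and 5 above the highest WT library. The means were 12.7 ± 8.01 and 2.64 ± 2.28 (SD, n = 8), the log2 difference was 1.94 ± 0.45 (SE) and limma gave an unadjusted p = 0.000271 (adjusted p = 0.409). The values rested on 5 to 33 reads per PS19 library and 0 to 7 per WT library. In the 2 WT libraries that share the code letter of PS19 it was 6.66 and 2.01, and with the letter as a term the log2 difference was 1.27 (limma, unadjusted p = 0.0694). Its precursor row, which was more abundant, lay between 39.3 and 72.6 in PS19 libraries and between 29.2 and 58.8 in WT libraries, at a log2 difference of 0.31 ± 0.21 (SE, limma, unadjusted p = 0.159).

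mir-5126, the precursor row, lay between 13.1 and 53.5 normalised counts in PS19 libraries (median 23.9) and between 5.03 and 21.9 in WT libraries (median 9.78). The 8 PS19 libraries lay above the WT median and 6 above the highest WT library. The means were 26.8 ± 12.1 and 11.6 ± 6.15 (SD, n = 8), the log2 difference was 1.19 ± 0.31 (SE) and limma gave an unadjusted p = 0.000896 (adjusted p = 0.7707). WT replicates 2 and 4, with the code letter of PS19, had 21.9 and 5.03. With the letter as a term the log2 difference was 1.14 (limma, unadjusted p = 0.0394). The mature row miR-5126 was too low to test in the fit across features, at 0 to 4.33 in PS19 (median 2.92) and 0 to 0.951 in WT, from 25 reads in all. It was above the highest WT library in 6 of 8 PS19 libraries (two-sided exact permutation test, p = 0.0112, unadjusted).

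miR-7240-5p lay between 8.54 and 17.4 normalised counts in PS19 libraries (median 9.18) and between 3.73 and 13.1 in WT libraries (median 6.54). All PS19 libraries lay above the WT median, but only 1 above the highest WT library. The log2 difference was 0.59 ± 0.26 (SE, limma, unadjusted p = 0.0372, adjusted p = 0.9998). The unadjusted p was 0.0544 to 0.0828 when PS19 replicate 3, 4 or 7 or WT replicate 2, 5, 6 or 8 was left out, 0.293 with the letter as a term, 0.0657 without the filter on low values, and 0.0509 and 0.0743 by edgeR and DESeq2. WT replicates 2 and 4 had 3.803 and 13.1, below and above the PS19 median.

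In the other direction none of the 76 rows had an unadjusted p under 0.05 in the limma fit over the 6024 features at a mean of at least 5. The smallest was that of mir-5119, the precursor row in Cdk12, which lay between 99.4 and 529 normalised counts in PS19 libraries (median 163) and between 136 and 547 in WT libraries (median 341). PS19 replicate 8 held the 529 and was the only PS19 library above the WT median. The log2 difference was -0.74 ± 0.37 (SE, limma, unadjusted p = 0.0609), and without that library it was -0.97 (unadjusted p = 0.00896, adjusted p = 0.607). Fitted without the filter on low values, mir-5119 had an unadjusted p = 0.0329 by limma. The unadjusted p was 0.028 to 0.030 without WT replicate 1, 2 or 3, and leaving out any of the other 12 libraries left it above 0.05. In WT, 3 libraries lay at 136 to 142.2, below the PS19 median, and 5 at 295 to 547, of which 1 was above the highest PS19 library. miR-6989-3p of Map4k2 lay between 11.6 and 43.7 in PS19 libraries and between 14.9 and 40.1 in WT libraries, at a log2 difference of -0.47 ± 0.27 (SE, limma, unadjusted p = 0.102). The unadjusted p was 0.0165 without PS19 replicate 1 and 0.0492 without WT replicate 7. Its 5p strand was at 2.04 ± 1.26 and 1.89 ± 0.928 (SD, n = 8). miR-6958-3p of Dennd6b, a strict mirtron, lay between 0 and 5.79 in PS19 libraries (median 2.61) and between 0 and 16.7 in WT libraries (median 8.02), and it reached the filter only through its WT libraries. All 8 PS19 libraries were below the WT median, yet 3 WT libraries, at 0, 0.707 and 5.03, lay among them. The log2 difference was -0.91 ± 0.56 (SE, limma, unadjusted p = 0.116), and edgeR and DESeq2 gave unadjusted p-values of 0.0228 and 0.0111. Without WT replicate 6 or 7, the libraries at 0 and 0.707, limma gave an unadjusted p of 0.0142 and 0.0386.

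**Figure D5:**
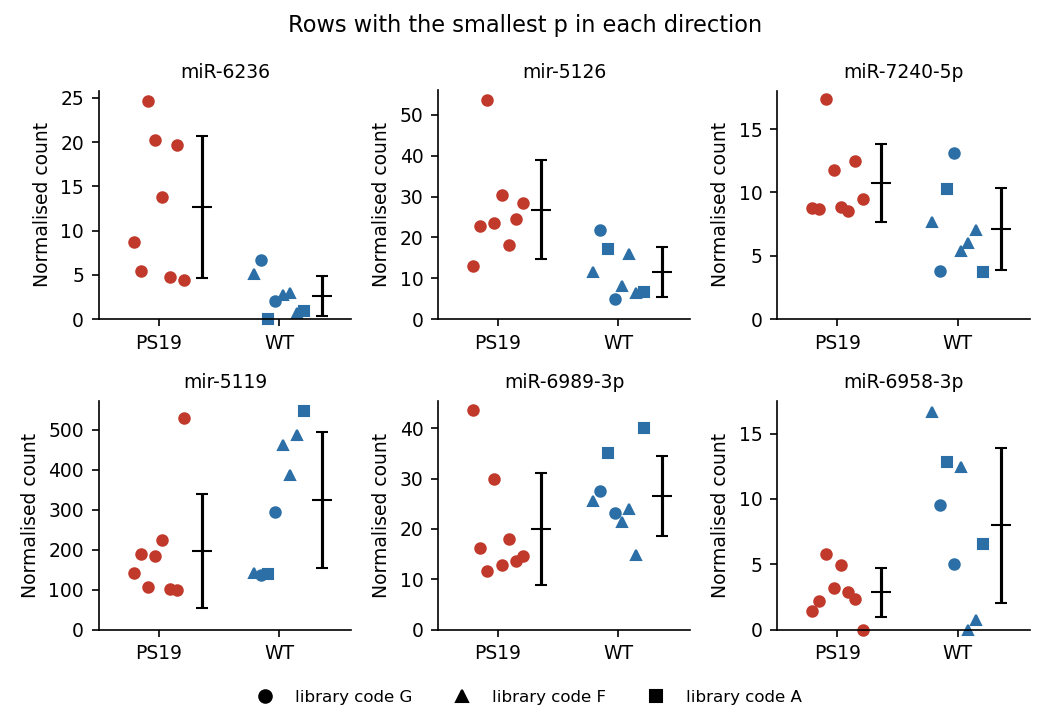
Normalised count in each library for the 3 rows with the smallest p in each direction, with the mean and SD of 8 libraries beside the points and the first letter of the library code as the symbol. miR-6236 and mir-5126 are higher in PS19 with partial overlap, and PS19 replicate 8 stands at 529 for mir-5119.

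miR-5114 and miR-5126 are named in the study, which chose them on these samples, so their direction here is not independent evidence. The study reports miR-5114 as raised in PS19 cortex and lowered in plasma vesicles, from unadjusted DESeq2 Wald tests. The limma fit on log2(value + 1) given below is a different test, so its p neither repeats nor contradicts that call. Levels in plasma vesicles were not tested here. miR-5114, the Scd2 exon sequence, lay between 2.19 and 14.9 normalised counts in PS19 libraries (median 7.23) and between 1.001 and 11.6 in WT libraries (median 4.40), and it reached the filter only through its PS19 libraries. The log2 difference was 0.63 ± 0.38 (SE, limma, unadjusted p = 0.114, adjusted p = 0.9998), from 1 to 17 reads per library. The groups overlapped, with 1 PS19 library above the highest WT library, and the unadjusted p was 0.0427 without PS19 replicate 8 and 0.0399 without WT replicate 5. The precursor row mir-5114 rested on 14 reads in all, at 1.44 ± 1.30 in PS19 and 0.226 ± 0.419 in WT (SD, n = 8; two-sided exact permutation test, p = 0.00886, unadjusted), and a library held at most 4 of these reads.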

How the data were processed

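Small RNA libraries of 8 PS19 and 8 WT prefrontal cortices were aligned by the authors to mm10 with STAR 2.5.3a within COMPSRA, and the deposited values are counts divided by DESeq2 (1.42.1) size factors, a normalised signal. The authors' own comparison columns (mean, log2 fold change, error, statistic, p and adjusted p) were not used. Groups were taken from the genotype label. Dividing each library by its smallest value above 0 gave whole reads, 13187096 to 23058568 per library, which were used for edgeR 4.0.16 and DESeq2 1.42.0. In WT replicates 4 and 6 this value was close to 1, so that wholeness is weaker evidence there.

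Differences were fitted on log2(value + 1) with limma 3.58.1 (eBayes with a trend) over the 6024 features with a mean of at least 5, with Benjamini-Hochberg adjustment over all of them, and so understate the change of low rows. Single rows under the filter were compared with a two-sided exact permutation test over 12870 assignments of libraries (scipy 1.17.1, numpy 2.4.6). The fit was tested on simulated data, where 102 of 200 changed features of 6024 were recovered with 2 false calls. Replicate pairs of a group differed by a chi-square of at least 43.5 per degree of freedom over 56 pairs, far above sampling noise. Each library came from 1 mouse, so p-values measure the spread between mice.

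RefSeq hairpins and mature sequences (GRCm38.p6) were matched by name and placed on introns and exons of GENCODE M21 of the same build, with a tolerance of 5 bases for a splice site. Motifs were read on the strand of the miRNA only. Rows named in the text were those with an unadjusted p under 0.05, the 3 smallest p-values in each direction, the 12 highest means, rows without overlap, miR-5114 and miR-5126, the edges of the number range, their partner strands and precursors, and the most abundant row of each class of origin. Rows outside this rule that are named for their seed, their precursor level, or without the filter were chosen after their values were seen. Members, lists and rules were chosen with earlier results of these data known. The alternatives tried were other scalings, filters, pseudocounts and tests, a replicate block, the library code letter and leaving out each library.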

Additional observations from a re-analysis of the deposited data

Results flagged for a closer look

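Among the rows named, a single library stood far from the others of its group in 13 of 71 group values examined, where chance gives about 1 in 20, or 3.55, and most of the rows concerned had few reads. Divided by the spread of the whole group, the distance to the neighbouring value was 0.709 for mir-5119 in PS19 (replicate 8 at 529, the next at 224), 0.570 for mir-5126 in PS19 (replicate 3 at 53.5, the next at 30.5) and 0.552 for miR-7240-5p in PS19 (replicate 3 at 17.4, the next at 12.5). It was 0.545 for miR-5121 in WT (replicate 7 at 159, the next at 121), 0.584 for miR-8103 in WT (replicate 1 at 137.1, the next at 71.0) and 0.580 for miR-6906-3p in PS19 (replicate 1 at 145.5, the next at 85.4). The other strand miR-6906-5p gave 0.662 in PS19 (replicate 1, 4 reads) and 0.552 in WT (replicate 7, 6 reads), and the precursor row mir-6906 gave 0.593 in PS19 (replicate 8, 2 reads). The low rows mir-6540 in PS19 (0.581, replicate 1, 7 reads), mir-7688 in WT (0.724, replicate 1, 4 reads), miR-6481 in WT (0.751, replicate 4, 4 reads) and miR-6958-5p in PS19 (1.0, replicate 4, 1 read) completed the set. Without PS19 replicate 3 the difference of mir-5126 kept an unadjusted p under 0.05, and that of miR-7240-5p did not (limma, unadjusted p = 0.0828).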

How the results depend on the processing

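The count of high-numbered rows with an unadjusted p under 0.05, 3 in the analysis reported, was 23 of 500 without the filter on low values (10 higher and 13 lower in PS19, where 3.98% of all features were called), 0 of 32 at a mean of at least 20, 5 with a replicate block, 1 with the library code letter as a term, and 2 to 5 when 1 library was left out. It was 5 without PS19 replicate 8, WT replicate 1 or WT replicate 7. The 3 rows called in the analysis reported had means of 7.66 (miR-6236), 19.2 (mir-5126) and 8.93 (miR-7240-5p). The filter at 20 therefore removed them before any test. The count over all features, 241, became 680 of 17088 without the filter, 136 of 2510 at a mean of at least 20, 419 with the replicate block, 2.06% of features with the letter as a term, and 171 to 321 when 1 library was left out. With DESeq2 15 features had an adjusted p under 0.05 and none of them was a high-numbered row. The adjusted count was 0 under every other alternative run (0 to 0 when 1 library was left out), and 0 for the high-numbered rows under all of them. Among calls over all features 46.5% were higher in PS19, against 58.5% with library-total scaling (107 higher, 76 lower), 56.6% with edgeR and 74.2% with the letter. The median log2 difference of the high-numbered rows stayed within the spread between libraries (0.37), at -0.07 to 0.13 when 1 library was left out. Their share of the miRNA value differed by 0.0122 percentage points between genotypes, by 0.202 within precursor rows only, and by 0.00588 to 0.0179 when 1 library was left out.

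Of single rows, mir-5126 had an unadjusted p under 0.05 in 27 of 27 fits, miR-6236 in 26, and miR-7240-5p in 16, and their adjusted p ran from 0.0896, 0.0972 and 0.678 up to 0.9999, 0.9999 and 1.0. These fits reuse the same libraries, most of them leaving out 1, and include the fit by which the rows were picked. They are therefore not independent support. The fit at a mean of at least 20 is not among them, since none of these rows reaches that mean. miR-6236 reached the filter at a mean of 5 only through its PS19 libraries. mir-5119 reached an unadjusted p = 0.0187 (limma) with the replicate block, and miR-5099 an unadjusted p = 0.048 with it. No called row changed sign. The labels do not say what a shared replicate number stands for, so the replicate block was kept as an alternative: deviations of libraries with the same number correlated positively for all 8 numbers, up to 0.456, but at only 0.0446 and 0.0781 for 2 of them, and 2 of 8 PS19 libraries correlated best with their own number. Depth limits most rows, since the 574 untested ones had a median of 5 reads in all libraries together, and intervals for such counts cover counting error only.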

Other observations

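One row under the filter had the smallest p of all 500 high-numbered rows fitted without it, and it was singled out after its values were seen. miR-6538, whose 19 bases lie in an intron of Rnf144a at chr12:26414970-26414988 (-), lay between 2.85 and 11.7 normalised counts in PS19 (median 7.06) and between 0 and 3.002 in WT libraries (median 1.21). Its means were 6.82 ± 3.42 and 1.25 ± 1.01 (SD, n = 8), and 6 of 8 PS19 libraries lay above the highest WT library. The log2 difference without the filter was 1.81 (limma, unadjusted p = 7.11e-05, adjusted p = 0.561), and a two-sided exact permutation test gave p = 0.000466. In WT replicates 2 and 4, which share the code letter of PS19, it was 1.90 and 1.01.
miR-6538: cGCGGGCUccggggcggcg
The seed is in capitals, and the sequence is shown because the row had the smallest p.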
